A study of Homo sapiens with 10 samples.

Results

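The 9 genes described here make up a working set for MHC class I antigen presentation: the heavy chains HLA-B and HLA-C, their partner B2M, the peptide transporter subunits TAP1 and TAP2, the loading factor TAPBP, the transactivator NLRC5, and the immunoproteasome subunits PSMB8 and PSMB9. They were taken by name from the 57820 gene identifiers of the deposited files, and all 9 were found. Messenger RNA was sequenced in 10 libraries of D425 and HD-MB03, a pair of established cell lines of Group 3 medulloblastoma, a childhood tumour of the cerebellum. In D425 the controls were parental replicates 1 and 2 and 1 library of cells with the empty vector, and 3 further libraries came from cells with a hairpin RNA against CRX (shCRX). In HD-MB03 the controls were 1 parental and 1 vector library, and 2 libraries were labelled shCRX. The hairpin was driven from a doxycycline-inducible lentiviral vector in polyclonal populations, doxycycline was given at 4 µg/ml for 72 h, and the labels do not say which of the hairpins used a given library carried. The labels state the doxycycline treatment for every library, parental cells included, and serum-containing medium for all. CRX is a homeodomain protein that drives photoreceptor genes in the retina and in the pineal, and the comparisons asked how the presentation genes behaved in cells carrying the hairpin and how they differed between the lines.

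Class I molecules display peptides of the cell's own proteins to CD8 T cells. Proteasomes cut proteins into peptides, and under interferon gamma the constitutive catalytic subunits PSMB5, PSMB6 and PSMB7 are exchanged for PSMB8, PSMB9 and PSMB10. The TAP1 and TAP2 heterodimer pumps the peptides into the endoplasmic reticulum, where TAPBP, called tapasin, bridges it to empty heavy chains that are held together with B2M, and only loaded complexes travel efficiently to the surface. NLRC5 has no DNA-binding domain of its own and acts with regulatory factor X and NF-Y proteins on the promoters of class I, B2M, TAP1 and PSMB9. Neurons and many brain tumours carry little class I, and a shortage of any link in this chain is known to lower surface display.

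The promoter stretches that carry the recognised class I elements are shown here because most of these genes are known to share them and their levels are compared below. They were taken from RefSeq on build GRCh38.p14, while the deposited counts were made on GRCh37, so these positions belong to the RefSeq sequence alone. Of the 9 genes, 8 had a window of 250 bases before the first base of the transcript, and NLRC5 had none. These were 10 windows, since TAP1 and PSMB8 each had a further one. Capitals mark matches, on either strand and allowed to overlap, to AANNGAAA (core of the interferon regulatory factor element), CCAAT (the box bound by NF-Y), TGACG (core of the cyclic AMP response element) and the kappa B site of the NF-kappa B factors. Sequences are written 5′ to 3′ on the gene's strand. The HLA-B stretch lies at chr6:31357226-31357361 on the minus strand, 182 to 47 bases before the first base, and that of HLA-C at chr6:31272139-31272289 on the minus strand. B2M is at chr15:44711370-44711477 on the plus strand. TAP1 is at chr6:32853762-32853843, TAP2 at chr6:32838765-32838806 and TAPBP at chr6:33314079-33314139, all on the minus strand.
HLA-B: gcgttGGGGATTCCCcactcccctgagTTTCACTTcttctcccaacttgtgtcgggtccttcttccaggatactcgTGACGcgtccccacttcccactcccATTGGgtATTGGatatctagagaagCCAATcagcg
HLA-C: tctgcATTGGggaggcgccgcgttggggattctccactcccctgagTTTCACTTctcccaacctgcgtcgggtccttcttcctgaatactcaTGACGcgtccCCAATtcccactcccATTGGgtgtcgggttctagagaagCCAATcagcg
B2M: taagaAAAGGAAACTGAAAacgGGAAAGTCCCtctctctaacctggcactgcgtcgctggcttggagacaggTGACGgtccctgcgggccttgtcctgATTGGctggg
TAP1: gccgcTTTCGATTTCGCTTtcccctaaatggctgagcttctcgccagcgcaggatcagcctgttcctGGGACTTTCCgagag
TAP2: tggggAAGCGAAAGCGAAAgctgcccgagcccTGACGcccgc
TAPBP: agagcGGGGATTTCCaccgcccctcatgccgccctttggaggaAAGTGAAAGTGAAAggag

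The counts of the 8 promoters are by gene, with a match in any of its windows, and the shares of the reference are by window. The further TAP1 window had no match to any of the motifs. The interferon regulatory factor core occurred in 6 of the 8 promoters (HLA-B, HLA-C, B2M, TAP1, TAP2 and TAPBP) and in 20.3% of the 35116 promoter windows of the reference. It stood as a pair of overlapping matches in B2M, TAP1, TAP2 and TAPBP. CCAAT was found in 32.0% of all windows and TGACG in 21.2%. The kappa B letters were rarer, in 5.07% of windows, and were present in HLA-B, B2M, TAP1 and TAPBP. The HLA-C promoter had no exact kappa B match although its 250 upstream bases were 89.0% identical to those of HLA-B. TAATCC, the letters bound by CRX and the related OTX factors, occurred in 5.62% of windows and in 0 of the 8 promoters. These matches describe letters in a reference window, and no binding was measured.

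Between 1.96 and 18.06 M reads (M, 10 to the power 6) were counted in genes per library, with the HD-MB03 controls the shallowest at 2.08 and 1.96 M, and with 30.9% and 26.4% of their reads not aligned against 4.54% to 7.99% elsewhere. Levels are given as CPM, the counts per M of the scaled library size, and 3 counts, the limit that a count of 0 allows, corresponded to 0.166 CPM in the deepest library and 1.53 CPM in the shallowest. CRX fell in D425 from 47.5, 29.7 and 64.9 CPM in controls to 20.3, 20.9 and 25.3 CPM (log2 fold change -1.10 ± 0.26, SE; edgeR quasi-likelihood adjusted p = 0.0436), a call lost when any 1 of 9 of the 10 libraries was left out (adjusted p 0.0533 to 0.171). In HD-MB03, CRX stood at 12.5 and 12.3 CPM in controls and at 27.7 and 23.5 CPM in the libraries labelled shCRX, which goes against that label. The Group 3 gene OTX2 was at 1483 to 2566 CPM in all 10 libraries, NPR3 at 1.61 CPM (20 counts) in D425 parental 2 and at most 0.182 CPM elsewhere, and EOMES at most 0.215 CPM. Of 6 tested Group 3 markers, 4 were lower and 1 higher in D425 than in HD-MB03, NRL by log2 -2.86 and GABRA5 by -2.54 among the lower. Of the same 6, 3 were lower in D425 shCRX than in D425 controls, among them CRX, the target of the hairpin, and GABRA5 by -1.85. Over all tested genes 21.6% passed as lower and 24.4% as higher in D425, and 1.37% as lower in D425 shCRX. Markers of leukocytes, cells with high class I, summed to 17.0 CPM or less, and 5 of the 12 were at 0 in every library (CD3E, CD2, MS4A1, LYZ and AIF1). Of the 3 leukocyte markers tested, PTPRC and CSF1R passed as higher in D425 (edgeR adjusted p = 0.0276 and 0.00189). The PTPRC call was lost without any 1 of 5 libraries (edgeR adjusted p 0.0547 to 0.0730). PTPRC was at 10.6 CPM in the D425 vector library, 0 to 1.79 CPM in the other D425 libraries and 0 in HD-MB03, and CSF1R was at 0.620 to 2.58 CPM in D425 and at most 0.286 CPM in HD-MB03. Their part in the results below was not tested. Library numbers in the deposited data fell into 20 to 62 (D425 shCRX and HD-MB03 control) and 110 upwards (D425 control and HD-MB03 labelled shCRX). Within a line this set and the hairpin cannot be told apart, whereas the mean of both arms compared the lines evenly over the sets.

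The widest contrast among these genes was between the lines. D425 had lower levels than HD-MB03 of every one of the 7 genes that passed the filter on low counts, by 1.55-fold for B2M and 30.5-fold for TAP2. The peptide transporter, tapasin and NLRC5 were 7.07- to 30.5-fold lower with no overlap between the libraries of the lines, and the heavy chains and B2M 1.55- to 1.96-fold lower with overlap. All 7 differences passed the test (edgeR quasi-likelihood, Benjamini-Hochberg adjusted p under 0.05), in a comparison in which 46.0% of 16006 tested genes passed, 21.6% as lower and 24.4% as higher in D425. The median log2 fold change of the 7 was -2.82, beside 0.05 over all tested genes. The lines are bulk populations, so fewer cells with a transcript and less of it per cell cannot be told apart.

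**Figure D1:**
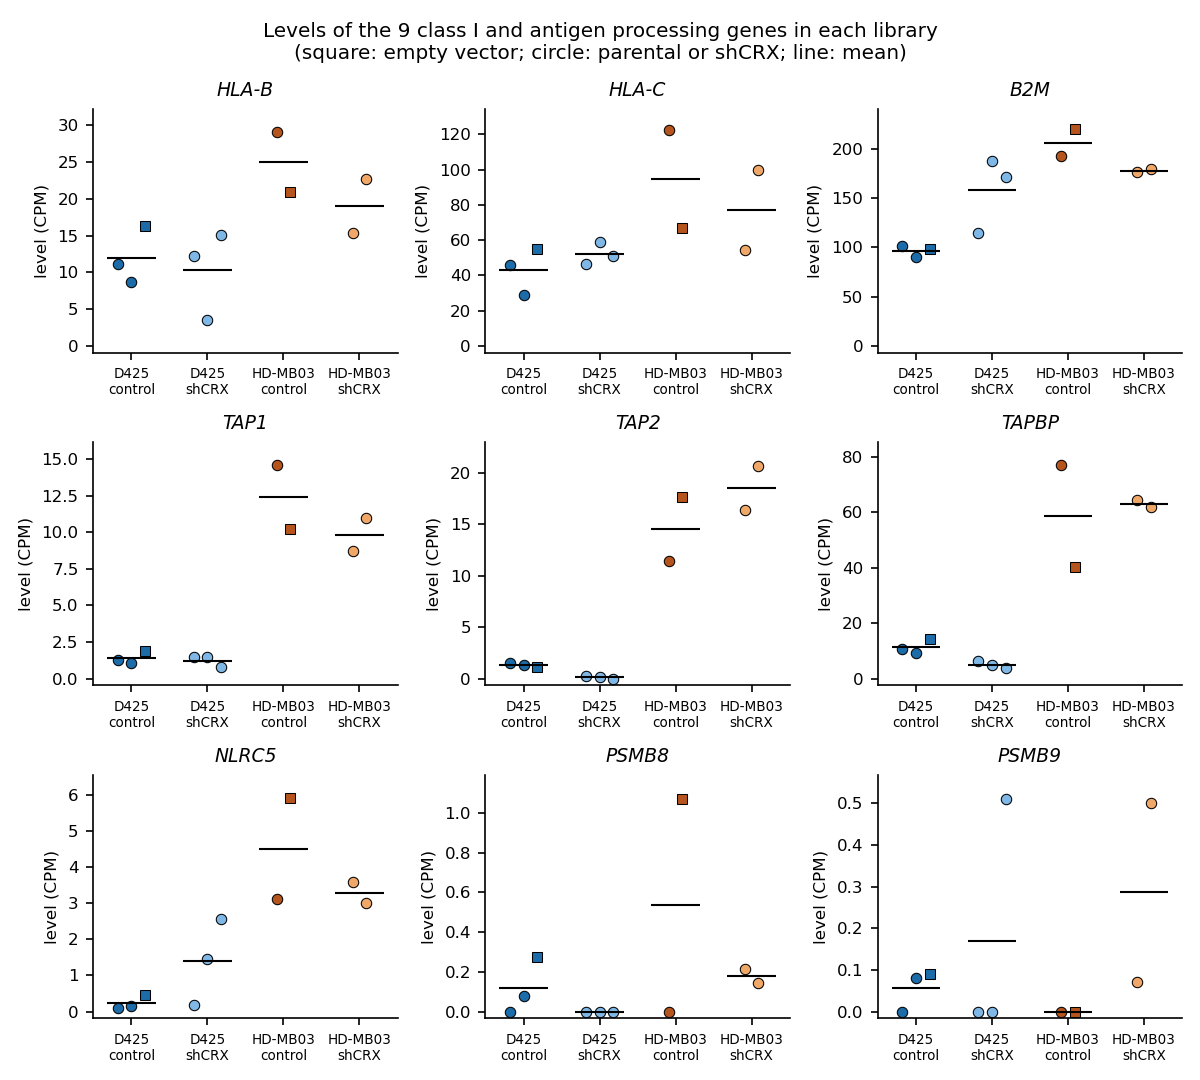
Level of each of the 9 genes in every library in CPM (vertical axes, linear, different for each gene), by line and arm (horizontal axes), with squares for empty-vector libraries, circles for parental or shCRX libraries and a line for the arm mean. TAP1, TAP2, TAPBP and NLRC5 are higher in all 4 HD-MB03 libraries than in any of the 6 D425 libraries, and PSMB8 and PSMB9 lie near 0 throughout.

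TAP1, the transporter subunit encoded beside PSMB9, stood at 1.29 and 1.05 CPM in the D425 parental libraries, 1.91 with the vector, and 1.48, 1.45 and 0.767 in shCRX replicates 1 to 3. In HD-MB03 it stood at 14.6 CPM in parental cells, 10.2 with the vector, and 8.72 and 10.96 in the libraries labelled shCRX. The lowest HD-MB03 library was thus far above the highest D425 library, and TAP1 was 8.17-fold lower in D425 (95% interval 5.15 to 13.0, log2 fold change -3.03 ± 0.31, SE; edgeR adjusted p = 6.34e-06). TAP2, its partner, was at 1.57, 1.29 and 1.18 CPM in the D425 controls and at 0.277, 0.207 and 0 CPM in D425 shCRX. HD-MB03 had 11.5 and 17.7 CPM of TAP2 in controls and 16.4 and 20.7 CPM in the libraries labelled shCRX. As the mean of both arms, TAP2 had the largest line difference of the 7, 30.5-fold lower in D425 (95% interval 18.5 to 50.5, log2 -4.93 ± 0.34, SE; edgeR adjusted p = 1.72e-07). Among controls alone NLRC5 had the larger value, 18.8-fold lower (95% interval 4.73 to 74.3), beside 10.6-fold for TAP2 (5.74 to 19.7), and these intervals overlapped.

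TAPBP, which holds empty class I molecules at the transporter, was at 10.6, 9.36 and 14.2 CPM in D425 controls and 6.55, 4.96 and 3.84 CPM in D425 shCRX. In HD-MB03 it was at 77.0 and 40.2 CPM in controls and 64.4 and 61.8 CPM in the libraries labelled shCRX. Its libraries did not overlap between lines, and it was 7.84-fold lower in D425 (95% interval 5.63 to 10.9, log2 -2.97 ± 0.22, SE; edgeR adjusted p = 3.67e-07). NLRC5, the transactivator, was at 0.112, 0.161 and 0.454 CPM in D425 controls and at 0.185, 1.45 and 2.56 CPM in D425 shCRX, which are 2 to 10 counts per library. HD-MB03 had 3.12 and 5.90 CPM of NLRC5 in controls and 3.57 and 3.01 CPM in the libraries labelled shCRX. The highest D425 library fell below the lowest of HD-MB03, and NLRC5 was 7.07-fold lower in D425 with a wide interval (2.90 to 17.3, log2 -2.82 ± 0.59, SE; edgeR adjusted p = 0.00195).

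HLA-B was at 11.1, 8.63 and 16.3 CPM in D425 controls and at 12.2, 3.52 and 15.1 CPM in D425 shCRX. HD-MB03 controls had 29.2 and 20.9 CPM of it, and the libraries labelled shCRX 15.3 and 22.7 CPM. The lines overlapped by 1 library on each side, the D425 vector library at 16.3 CPM lying above HD-MB03 shCRX replicate 1 at 15.3 CPM. HLA-B was 1.96-fold lower in D425 (log2 -0.97 ± 0.33, SE; edgeR adjusted p = 0.0291). That call was lost when D425 parental 2, HD-MB03 parental, HD-MB03 vector or HD-MB03 shCRX 2 was left out (adjusted p 0.0510 to 0.128). HLA-C, the other heavy chain, was at 46.1, 28.8 and 55.0 CPM in D425 controls, and at 46.6, 58.7 and 51.2 CPM in D425 shCRX. In HD-MB03 it was at 122.3 and 67.0 CPM in controls and 54.5 and 100 CPM in the libraries labelled shCRX. Only the lower HD-MB03 shCRX library reached into the D425 range, and HLA-C was 1.80-fold lower in D425 (log2 -0.85 ± 0.23, SE; edgeR adjusted p = 0.0103), a call lost without HD-MB03 parental (adjusted p = 0.0907) or HD-MB03 shCRX 2 (adjusted p = 0.0640).

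B2M, the invariant light chain of all class I molecules, was at 101.1, 90.6 and 98.4 CPM in D425 controls and at 114.4, 188.4 and 171.6 CPM in D425 shCRX. It was at 192.6 and 220.9 CPM in HD-MB03 controls and at 176.7 and 179.5 CPM in the libraries labelled shCRX. The D425 controls were tightly grouped and lowest, and 1 D425 shCRX library overlapped HD-MB03. B2M was 1.55-fold lower in D425 (log2 -0.63 ± 0.15, SE; edgeR adjusted p = 0.00479), and this call was made without any 1 of the 10 libraries. Per kilobase of its longest coding transcript, B2M in D425 controls was at 56.7 ± 3.2 CPM (SD, n = 3), HLA-C at 27.9 ± 8.6, HLA-B at 7.77 ± 2.52, TAPBP at 3.03 ± 0.67, TAP1 at 0.478 ± 0.150 and TAP2 at 0.237 ± 0.035. NLRC5 was the lowest of the 7 on that scale, at 0.036 ± 0.027 CPM per kilobase. The light chain thus stood highest per unit of transcript length, and the transactivator and transporter lowest.

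Non-overlap of all D425 with all HD-MB03 libraries, as seen for TAP1, TAP2, TAPBP and NLRC5, was found for 29.1% of all tested genes and, as lower in D425, for 13.8%. Within the libraries numbered 20 to 62 the log2 differences between D425 shCRX and HD-MB03 controls were -3.26 for TAP1, -6.10 for TAP2, -3.47 for TAPBP, -1.87 for NLRC5, -1.28 for HLA-B, -0.86 for HLA-C and -0.39 for B2M. Only TAP1, TAP2 and TAPBP passed there, all as lower, beside 30.7% of all genes and 14.7% as lower. Within the libraries numbered from 110 upwards, D425 controls against HD-MB03 labelled shCRX, the values were -2.80, -3.76, -2.47, -3.78, -0.66, -0.84 and -0.88 in the same order of genes. TAP1, TAP2, TAPBP, NLRC5 and B2M passed in that set, all as lower, beside 31.2% of all genes and 15.8% as lower. All 7 genes were lower in D425 in both sets, and TAP1, TAP2 and TAPBP passed in each.

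**Figure D2:**
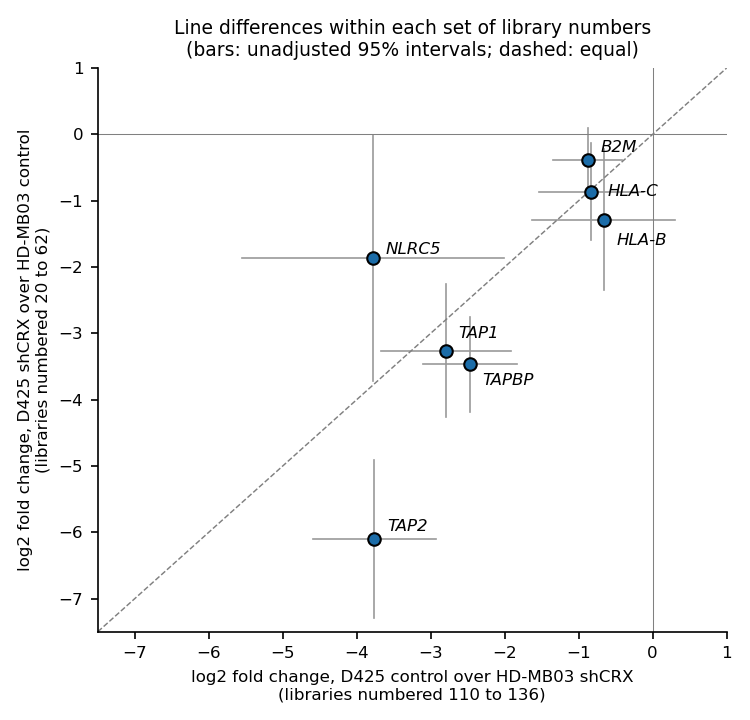
Line difference of the 7 tested genes within each set of library numbers, as log2 fold change of D425 controls over HD-MB03 labelled shCRX (horizontal axis, libraries numbered from 110 upwards) and of D425 shCRX over HD-MB03 controls (vertical axis, libraries numbered 20 to 62), with unadjusted 95% intervals as bars and equality as a dashed line. Every point lies below 0 on both axes, with TAP2 lowest on the vertical axis at -6.10 and B2M nearest to 0 there at -0.39.

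The counts of several of these genes are less certain than their depth implies. In GENCODE release 29, 32.3% of the exonic bases of TAP2 were shared with another gene, as were 20.6% of PSMB8, 18.9% of HLA-B, 9.49% of TAP1, 5.66% of PSMB9 and 1.40% of HLA-C, and none of B2M, TAPBP or NLRC5. Reads in shared bases are set aside by the counting unless strand separates the genes, and the sources used here do not give the strand setting. HLA-B and HLA-C are also near copies of each other and differ between people, so reads from alleles of these lines that differ from the reference may be lost or misplaced. HLA-B made up 18.5% to 23.8% of the summed counts of HLA-B and HLA-C in 9 libraries, in both lines alike. The exception was D425 shCRX replicate 2, with 17 of 301 counts or 5.65% (exact 95% binomial interval 3.32% to 8.89%, counting error alone), where HLA-B was at its lowest level and HLA-C at its highest within D425.

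The immunoproteasome subunits were close to undetectable in both lines. PSMB8, which replaces PSMB5, had 11 counts in all 10 libraries together, and PSMB9, which replaces PSMB6, had 12, so neither passed the filter and neither was tested. PSMB8 was at 0, 0.081 and 0.273 CPM in the D425 controls and at 0 CPM in all 3 D425 shCRX libraries. It was at 0 and 1.07 CPM in HD-MB03 controls, the latter being 2 counts, and at 0.214 and 0.143 CPM in the libraries labelled shCRX. All of these values are at or under the level of 3 counts in their library. PSMB9 was at 0, 0.081 and 0.091 CPM in D425 controls and at 0, 0 and 0.512 CPM in D425 shCRX. It was at 0 in both HD-MB03 controls and at 0.071 and 0.501 CPM in the libraries labelled shCRX, the last being 7 counts in HD-MB03 shCRX 2. That was the one library of the 10 in which a PSMB8 or PSMB9 value exceeded 3 counts, and no order of the arms can be read from these levels.

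The constitutive counterparts were abundant in the same libraries. PSMB5 was at 149 ± 6 CPM (SD, n = 3) in D425 controls and 160 ± 32 (SD, n = 3) in D425 shCRX, and at 276 ± 49 (SD, n = 2) in HD-MB03 controls and 128 ± 3 (SD, n = 2) in HD-MB03 labelled shCRX. PSMB8 made up 0.080% of the counts of PSMB8 and PSMB5 over all libraries (11 of 13732, exact 95% binomial interval 0.040% to 0.143%). PSMB9 made up 0.201% of the counts of PSMB9 and PSMB6 (12 of 5965, 0.104% to 0.351%). PSMB10, the third inducible subunit, made up 0.233% of the counts with PSMB7 (39 of 16769, 0.165% to 0.318%). These are shares of counts and not of length-corrected levels, and their intervals cover counting error alone. In RefSeq the first bases of TAP1 and PSMB9 lie 488 bases apart on chromosome 6, or 1431 from another TAP1 start, and the genes are read away from each other. In HD-MB03 controls TAP1 was at 4.18 ± 1.05 CPM per kilobase (SD, n = 2) while its neighbour PSMB9 was at 0 counts in both libraries. These are the shallowest libraries, where 3 counts correspond to 1.44 and 1.53 CPM. The deeper HD-MB03 libraries labelled shCRX had 1 and 7 counts of PSMB9.

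**Figure D3:**
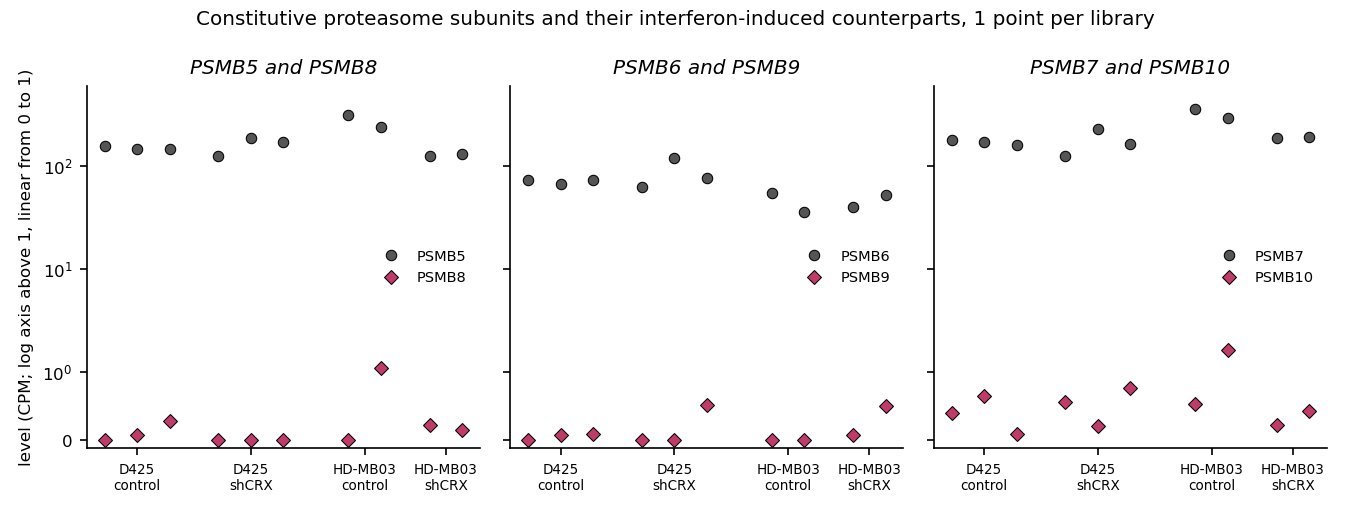
Level in CPM (vertical axis, logarithmic above 1 and linear from 0 to 1) of the constitutive proteasome subunits PSMB5, PSMB6 and PSMB7 (grey circles) and of the interferon-induced subunits PSMB8, PSMB9 and PSMB10 (red diamonds), 1 point per library, by line and arm. The constitutive subunits lie between 35.9 and 361.7 CPM and the induced ones at or under 1.61 CPM in every library.

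In D425 cells carrying the hairpin, TAP2 was the one gene of the 7 tested that passed the test, a call that held in 11 of 21 alternative settings. It fell from 1.35 ± 0.20 CPM (SD, n = 3) to 0.161 ± 0.144 CPM (SD, n = 3), and its arms did not overlap. TAPBP was also lower in every shCRX library than in any control and B2M higher, and neither passed, though their unadjusted 95% intervals, log2 -1.74 to -0.46 and 0.28 to 1.13, did not include 0. HLA-B, HLA-C and TAP1 overlapped between the arms, and so did NLRC5. Of the 7 tested genes 1 passed, in a comparison in which 2.97% of all genes passed and 1.37% passed as lower. The arms did not overlap for 3 of the 7, beside 23.0% of all tested genes, with 11.5% as lower and 11.5% as higher.

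TAP2 was 6.47-fold lower in D425 shCRX (95% interval 2.74 to 15.3, log2 -2.69 ± 0.57, SE; edgeR adjusted p = 0.0258), on 57 counts in the controls and 4 counts, 3 and 1 and 0, in shCRX replicates 1 to 3. The direction held in all 21 alternative settings, with log2 values from -3.45 to -2.39. The call was lost without D425 parental 1 (edgeR adjusted p = 0.0774), without the vector library (0.0541) and without shCRX replicate 1 (0.0521), 2 (0.0534) or 3 (0.0664). With all libraries thinned to the depth of the shallowest the log2 value was -2.99 and the edgeR adjusted p = 0.132. TAP2 made up 50% of the counts of TAP1 and TAP2 in D425 controls (57 of 114, exact 95% binomial interval 40.5% to 59.5%) and 13.3% in D425 shCRX (4 of 30, 3.76% to 30.7%). These intervals pool the libraries of an arm and cover counting error alone, and those of single libraries overlapped, as for the vector library (38.2%, 22.2% to 56.4%) and shCRX replicate 1 (15.8%, 3.38% to 39.6%). TAP1 had log2 -0.14 ± 0.43 (edgeR adjusted p = 0.919). D425 shCRX libraries were shallower than their controls, at 3.64 to 9.53 against 11.36 to 18.06 M counts, and the part of the library number set in this comparison cannot be told apart from that of the hairpin.

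TAPBP had log2 -1.10 ± 0.30 in D425 shCRX (edgeR adjusted p = 0.0667), with 6.55 CPM in its highest shCRX library and 9.36 CPM in its lowest control. B2M had log2 0.71 ± 0.20 (edgeR adjusted p = 0.0755), the lowest shCRX library at 114.4 CPM lying above the highest control at 101.1 CPM. Other settings called them: TAPBP passed with DESeq2 (adjusted p = 0.0199) and, in edgeR, with no filter (0.00233) or with the GC trend removed (0.0435). B2M passed with DESeq2 (adjusted p = 0.0183) and, in edgeR, with library totals as the scaling (0.0293) or without shCRX replicate 1 (0.0201). NLRC5 had log2 2.36 ± 0.87 (edgeR adjusted p = 0.173), since shCRX replicates 2 and 3 were above every control and replicate 1, at 0.185 CPM, lay within their range. Without shCRX replicate 1 its log2 value was 3.04 (edgeR adjusted p = 0.0404), without replicate 3 it was 1.52 (0.511), and with the vector library as the one control 1.40 (0.702). The heavy chains had log2 -0.22 ± 0.42 for HLA-B and 0.27 ± 0.30 for HLA-C (edgeR adjusted p = 0.846 and 0.711). The median over the 7 was -0.14, beside 0.02 over all tested genes.

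In HD-MB03 none of the 7 genes passed between the libraries labelled shCRX and the controls (0 of 7, beside 1.51% of all genes and 1.24% as lower, and 0 of 7 at an unadjusted p under 0.05), and DESeq2 called 0 as well. Log2 values ran from -0.45 ± 0.84 for NLRC5 to 0.35 ± 0.42 for TAP2, with edgeR adjusted p from 0.686 to 0.900. The 95% interval of the TAP2 difference ran from -0.55 to 1.25, and that of TAPBP from -0.60 to 0.81. B2M was lower in both libraries labelled shCRX than in either control, in a comparison of 2 against 2 in which 52.3% of all genes did not overlap, 21.8% as lower. The other 6 tested genes overlapped between the arms. As given above, CRX was higher in these libraries than in the controls, so no direction with respect to CRX can be drawn from them.

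The effects in the lines were then compared with each other. TAP2 was the 1 gene of the 7 whose difference passed, at log2 -3.04 ± 0.72 (D425 minus HD-MB03, edgeR adjusted p = 0.0335), where 4.16% of all genes passed and 1.49% passed as lower. This call was lost without D425 parental 1 (edgeR adjusted p = 0.0711), D425 shCRX 3 (0.0657), HD-MB03 parental (0.131), HD-MB03 shCRX 1 (0.0873) or HD-MB03 shCRX 2 (0.0931). TAPBP had a difference of -1.21 ± 0.44 (edgeR adjusted p = 0.142), B2M of 0.92 ± 0.31 (0.116) and NLRC5 of 2.81 ± 1.21 (0.202). None of them passed, though their unadjusted 95% intervals kept to the same sign: -2.16 to -0.25, 0.25 to 1.60 and 0.20 to 5.42. For HLA-B, HLA-C and TAP1 the differences were 0.18 ± 0.67, 0.56 ± 0.47 and 0.20 ± 0.63. The share of TAP2 among the transporter counts was 53.9% in HD-MB03 controls (55 of 102, exact 95% interval 43.8% to 63.8%) and 65.4% in the libraries labelled shCRX (519 of 794, 61.9% to 68.7%).

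**Figure D4:**
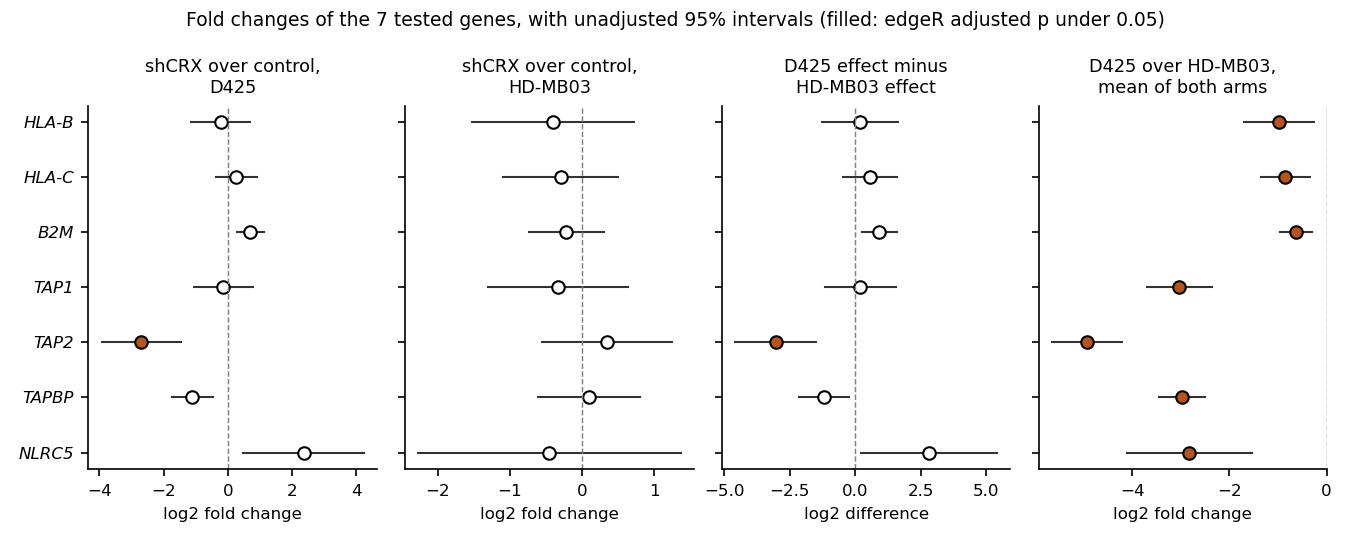
Log2 fold changes of the 7 tested genes (horizontal axes, a different scale in each panel) for shCRX over control in each line, for the D425 effect minus the HD-MB03 effect, and for D425 over HD-MB03 as the mean of both arms, with unadjusted 95% intervals as bars and filled points for an edgeR adjusted p under 0.05. TAP2 is the one filled point in the D425 panel, at -2.69, and in the panel of the difference, at -3.04, the HD-MB03 panel has none, and all 7 points are filled between the lines.

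The rest of the pathway did not follow the 7 genes as a block between the lines. Among other class I heavy chains and class I-like molecules, 2 of 7 tested passed as higher in D425 and 1 as lower, with a median log2 of 0.44 beside 0.05 over all genes. Over all tested genes 24.4% passed as higher and 21.6% as lower. HLA-E, a ligand of the inhibitory NK cell receptor NKG2A, was at 48.3 to 99.3 CPM in D425 and 18.1 to 30.7 CPM in HD-MB03 (log2 1.39 ± 0.23, edgeR adjusted p = 0.000368), opposite in sign to HLA-B and HLA-C. PROCR, the endothelial protein C receptor, was higher in D425 (log2 1.69 ± 0.22, edgeR adjusted p = 5.68e-05), and HFE, a regulator of iron uptake, was at 0 counts in all 6 D425 libraries and at least 105-fold higher in HD-MB03 against a floor of 3 counts over the D425 libraries. HLA-G was at 0 counts in every library.

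Of 12 peptide loading, trimming and chaperone genes, 3 were higher and 2 lower in D425, with a median of 0.21. Over all tested genes 24.4% passed as higher and 21.6% as lower. TAPBPL, a relative of tapasin that edits peptides, was at 0 to 0.512 CPM in D425 and 3.07 to 5.90 CPM in HD-MB03 (log2 -4.75 ± 0.52, edgeR adjusted p = 1.25e-05). ERAP2, which trims peptides in the endoplasmic reticulum, was at 0 to 0.784 CPM in D425 and 8.31 to 12.3 CPM in HD-MB03 (log2 -4.34 ± 0.43, edgeR adjusted p = 5.08e-06). These 2 had the direction of TAP1, TAP2 and TAPBP, whereas the general chaperones HSPA5 (log2 0.75), CANX (0.62) and PDIA3 (0.47) were higher in D425, with calls lost without HD-MB03 vector for CANX (edgeR adjusted p = 0.0535) and without any of 3 single libraries for PDIA3 (0.0566 to 0.0958). Among 9 tested proteasome genes 3 passed in each direction, beside the same shares of all genes, with a median of -0.12. The activator subunits PSME1 and PSME2, also induced by interferon gamma, were lower in D425 (log2 -0.82 ± 0.19 and -0.75 ± 0.16, edgeR adjusted p = 0.00341 and 0.00237).

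Of 18 regulators of class I transcription, 2 were higher and 5 lower in D425, with a median of -0.30. Over all tested genes 24.4% passed as higher and 21.6% as lower. IRF2, an interferon regulatory factor that acts on class I pathway promoters, was at 4.36 to 6.82 CPM in D425 controls, 0.414 to 2.56 CPM in D425 shCRX and 10.8 to 18.8 CPM in HD-MB03 (log2 between lines -2.48 ± 0.35, edgeR adjusted p = 0.000103). NFKB1, a subunit of the kappa B binding factor, was also lower in D425 (log2 -1.32 ± 0.15, edgeR adjusted p = 1.56e-05). The other lower ones were MYC (log2 -1.03), NFYA (-0.83) and NFYB (-0.62), the NFYB call being lost without HD-MB03 vector or HD-MB03 shCRX 1. EED, a subunit of the Polycomb repressor complex that can silence class I genes, was higher (log2 1.37 ± 0.19, edgeR adjusted p = 7.72e-05). EZH2, another Polycomb subunit, overlapped between the lines, at 109 to 188.5 CPM in D425 and 134.3 to 199.7 CPM in HD-MB03. IRF1, the inducible activator, had log2 -0.66 ± 0.38 (edgeR adjusted p = 0.177). Among 12 interferon receptor and JAK-STAT genes 5 were higher and 1 lower, beside the same shares of all genes, with a median of 0.28. JAK2, 1 of the kinases of the interferon gamma receptor, was the lower one (log2 -1.27 ± 0.27, edgeR adjusted p = 0.00194). JAK1, the other kinase of that receptor, was higher in D425 (log2 0.59 ± 0.17, edgeR adjusted p = 0.0135). The JAK1 call was lost without HD-MB03 parental or HD-MB03 shCRX 2 (edgeR adjusted p 0.0543 to 0.0685).

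Of 24 tested interferon-stimulated genes 5 were higher and 9 lower in D425, with a median of -0.38, so this list did not move in one direction. These counts, and those of the class II and ligand lists below, stand beside 24.4% of all tested genes as higher and 21.6% as lower. DTX3L and PARP9, partners in a ubiquitin ligase complex, were at no more than 0.256 and 0.185 CPM in D425 and at 14.1 to 19.4 and 5.58 to 8.04 CPM in HD-MB03. UBE2L6, the conjugating enzyme for ISG15, was at 19.2 to 43.1 CPM in D425 and 0.214 to 2.68 CPM in HD-MB03, and MX2 was at 0 counts in all 4 HD-MB03 libraries. OAS1, OASL and IDO1 were at 0 counts in every library. Of 5 tested MHC class II genes 3 were higher in D425, with a median of 2.30. Their levels were at most 10.1 CPM, a value reached by HLA-DPB1, a class II beta chain. HLA-DMA and HLA-DMB lost their calls without any of 7 and 6 single libraries. Of 10 ligands of NK and T cell receptors 4 were higher and 2 lower, with a median of 1.16. ULBP1, a ligand of the activating receptor NKG2D, was at 2.90 to 36.2 CPM in D425 and 0 to 1.79 CPM in HD-MB03.

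**Figure D5:**
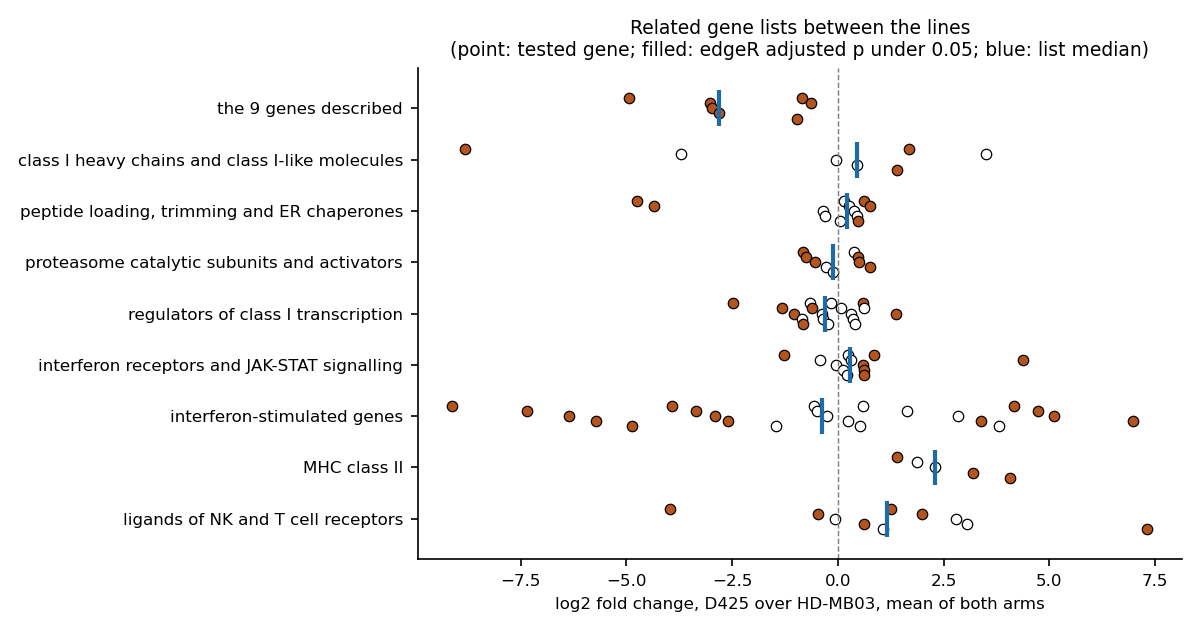
Log2 fold change of D425 over HD-MB03, as the mean of both arms (horizontal axis), for each tested gene of the 9 described genes and of 8 related lists (rows), with filled points for an edgeR adjusted p under 0.05 and a blue bar for the list median. All points of the first row lie below 0 with a median of -2.82, and every other list has points on both sides of 0 except MHC class II, whose 5 points lie above it.

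In D425 shCRX few genes of these lists passed, in a comparison in which 2.97% of all tested genes passed, 1.37% as lower. IRF2 fell by 2.00 ± 0.49 in log2 units (edgeR adjusted p = 0.0464) and was the 1 of 18 regulators to pass, with a list median of -0.06. Its call was lost without any 1 of 9 of the 10 libraries (edgeR adjusted p 0.0502 to 0.143) and kept in 5 of 21 settings. IFIH1, a cytosolic sensor of double-stranded RNA, fell from 15.5, 7.59 and 31.2 CPM to 0.738, 0.207 and 3.33 CPM (log2 -3.84 ± 0.71, edgeR adjusted p = 0.0151), a call lost without D425 vector (0.0534) or D425 shCRX 1 (0.0545). USP18, which removes ISG15 from proteins and dampens interferon signalling, also fell (log2 -2.62 ± 0.64, edgeR adjusted p = 0.0455), with the call lost without any 1 of 9 libraries (0.0559 to 0.152). These were the 2 of 24 interferon-stimulated genes to pass, with a list median of -0.42, or -0.37 with genes at 0 in an arm put at their bound. IRF1 was at 1.74, 1.86 and 2.55 CPM in D425 controls and 9.23, 7.45 and 2.30 CPM in shCRX, and did not pass (edgeR adjusted p = 0.0834). No heavy chain, loading, proteasome, JAK-STAT, class II or NK ligand gene passed in D425.

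In HD-MB03 the 1 gene of these lists to pass was PSMB5, the constitutive counterpart of PSMB8, which was at 310.2 and 240.7 CPM in controls and 125.3 and 129.8 CPM in the libraries labelled shCRX (log2 -1.11 ± 0.23, edgeR adjusted p = 0.0380). In this comparison 1.51% of all tested genes passed. The PSMB5 call was lost without any of 6 single libraries (edgeR adjusted p 0.0536 to 0.299). HD-MB03 shCRX replicate 2 stood apart from replicate 1 in several genes of these lists: its class II genes summed to 15.5 CPM against 1.79 CPM, and HLA-F was at 3.72 CPM against 0. Some interferon-stimulated and class I-like genes encoded outside the MHC region did so too. BST2 was at 24.7 CPM against 0.572, IFITM2 at 3.22 against 0, IFITM1 at 2.79 against 0.071 and MR1 at 3.51 against 0.286. Others went the other way, IFIT5 for example at 29.4 CPM against 37.5 and DTX3L at 14.1 against 19.4. The 38 interferon-stimulated genes found summed to 160.1 against 143.9 CPM. Among the 9 genes described, HD-MB03 shCRX replicate 2 had the larger value of HLA-B, HLA-C, TAP1, TAP2 and PSMB9 of the pair. B2M was close, at 179.5 against 176.7 CPM. TAPBP (61.8 against 64.4 CPM), NLRC5 (3.01 against 3.57) and PSMB8 (0.143 against 0.214) were lower in it.

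Some genes outside these lists had profiles close to the mean standardised profile of the 7 tested genes over the 10 libraries. The 8 nearest of 12957 tested coding genes, by Pearson's r of log2 CPM, were GALNS (0.985), MLKL (0.983), GSTM1 (0.982), AGPAT2 (0.982), KIAA0040 (0.982), KAZN (0.981), KCNMB4 (0.979) and HSPA2 (0.978). The 7 genes themselves had r from 0.724 for HLA-B to 0.969 for TAP1. All 8 were higher in HD-MB03 arms than in D425 arms, MLKL for example at 0.155 CPM in D425 controls and 17.7 CPM in HD-MB03 controls. The libraries of a line share that line's genome, so this likeness is a description of the line contrast.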

How the data were processed

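The authors deposited read counts per gene, 1 file per library, not normalised. Per the submitters' processing notes they used bcl2fastq, HISAT2, HTSeq and DESeq2 with build GRCh37 (hg19), and their versions and strand setting are not given in the sources used here. Per the labels' protocols, poly(A) RNA was used. Each file held 57820 gene identifiers, of which 52338 received a symbol, and 5 summary entries, which were left out. Between 50.5% and 79.3% of reads were counted in genes. No pair of libraries was identical (0 pairs), and all pairs within an arm differed beyond sampling noise.

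Counts were fitted in R 4.3.3 with edgeR 4.0.16 (TMM scaling, filterByExpr, robust quasi-likelihood, 4 arm means, 6 residual degrees of freedom). Parental and vector libraries of a line were its controls. In all 16006 genes were tested, 7 of the 9 among them, and p-values were two-sided and adjusted over all tested genes by Benjamini-Hochberg. The biological coefficient of variation was 26.0%. SE is the log2 fold change divided by the square root of F. Libraries of a group are not stated to be separate cultures, so p-values measure only how these samples vary, and that variation may be technical. Count intervals are Poisson or exact (Clopper-Pearson) binomial at 95%.

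The genes, the related lists and the comparisons were chosen with earlier results of these data known. Named genes were the 9, CRX, PSMB5, PSMB6, PSMB7, PSMB10, up to 6 passing genes of each list and comparison, from which the text selects, and the 8 genes most alike in profile. OTX2, NPR3, EOMES, NRL, GABRA5, PTPRC, CSF1R, BST2, IFITM1, IFITM2, MR1, IRF1, EZH2, HLA-F and HLA-G are named in addition, chosen after their values were seen. The model was tested on simulated counts. Alternatives were DESeq2 1.42.0, limma-voom (limma 3.58.1), other scaling, no filter, vector or parental controls alone, equal depth, removal of a GC trend, a replicate block and leaving out each library. Transcript lengths, GC content and exon overlap came from GENCODE release 29, and promoters from RefSeq GRCh38.p14. Neither is of the authors' build, so no gene positions are given from the counts.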

Additional observations from a re-analysis of the deposited data

Results flagged for a closer look

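The difference between the lines in the effect of the hairpin label passed for 5 of the genes examined. The test was of the difference itself (D425 minus HD-MB03, edgeR quasi-likelihood), and 4.16% of all 16006 tested genes passed it. The 5 were 1 of the 7 tested genes described here, 1 of 9 proteasome genes, 2 of 6 Group 3 markers and 1 of 4 neural markers. No gene of the other lists passed. TAP2 had a difference of -3.04 ± 0.72 on the log2 scale (edgeR adjusted p = 0.0335), with lower levels in 3 of 3 D425 shCRX libraries and overlapping arms in HD-MB03. CRX had a difference of -2.14 ± 0.45 (edgeR adjusted p = 0.0199), being lower in D425 shCRX and higher in the HD-MB03 libraries labelled shCRX, a call lost without any 1 of 3 libraries, HD-MB03 parental, vector or shCRX 1 (0.0601 to 0.105). PSMB5 had a difference of 1.21 ± 0.30 (edgeR adjusted p = 0.0414), lower in 2 of 2 HD-MB03 libraries labelled shCRX, a call lost without any 1 of 8 libraries, those other than D425 shCRX 1 and HD-MB03 vector (0.0648 to 0.197). The Group 3 marker IMPG2, a protein of the photoreceptor matrix, had -1.47 ± 0.34 (edgeR adjusted p = 0.0296), a call lost without D425 parental 1, D425 vector, HD-MB03 parental, HD-MB03 vector or HD-MB03 shCRX 1 (0.0588 to 0.160). The neural marker SYP, synaptophysin, had -2.26 ± 0.30 (edgeR adjusted p = 0.00176), a call made without any 1 of the 10 libraries. The TAP2 call was lost without any 1 of 5 libraries (0.0657 to 0.131). In each line the hairpin coincides with the set of library numbers, in opposite directions, so these differences and the number set cannot be told apart.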

How the results depend on the processing

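Among the 7 tested genes, TAP1, TAP2 and TAPBP kept their line call in all 24 alternatives, NLRC5 in 21 of 23, B2M in 22 of 24, HLA-C in 18 and HLA-B in 13. The number of the 7 called between the lines was 7, and 3 with vector libraries alone as controls or within the libraries numbered 20 to 62, which leaves fewer libraries, and 5 to 7 with 1 library left out. The number called in D425 shCRX was 1. It became 2 with library totals, with no filter or with the GC trend removed, 3 with DESeq2, and 0 with vector controls alone, with parental controls alone or at equal depth, and 0 to 2 with 1 library left out. The number called for the difference of the effects was 1. It became 2 with no filter, with DESeq2 or with the GC trend removed, 0 with vector controls alone, with parental controls alone or at equal depth, and 0 to 2 with 1 library left out. In HD-MB03 it stayed at 0 in the alternatives run.

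With a replicate block (D425 parental and shCRX libraries 1 and 2), 0 of the 7 were called in D425 and 0 for the difference, and the same libraries with no block, an alternative chosen after seeing the data, also gave 0 and 0. TAP2 in D425 was -2.52 with the block (edgeR adjusted p = 0.115) and -2.48 without it (0.123). The differences between libraries 1 and 2, parental and shCRX, had a correlation of 0.0108 over the tested genes. The labels do not say whether equal numbers mark a shared culture or day, and this value cannot decide it.

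A sign changed in 31 values, none of them called (0 of 31). With 1 library left out in turn, the D425 shCRX values ran from -0.57 to 0.15 for HLA-B and from -0.33 to 0.12 for TAP1. The HD-MB03 values ran from -0.79 to 0.22 for HLA-C, from -0.26 to 0.67 for TAPBP and from -0.82 to 0.10 for NLRC5, and the difference from -0.15 to 0.54 for HLA-B and from -0.11 to 0.46 for TAP1. In D425 shCRX, HLA-B was 0.04 with parental controls alone and HLA-C -0.10 with vector controls alone, and TAP1 was 0.01 with library totals, 0.11 with parental controls, 0.28 with the replicate block and 0.28 with the same libraries and no block. In HD-MB03, HLA-C was 0.18 with vector controls, TAPBP was -0.27 with parental controls and -0.07 at equal depth, and NLRC5 was 0.10 with parental controls. For the difference, vector controls gave -0.52 for HLA-B, -0.28 for HLA-C and -0.52 for TAP1, removal of the GC trend -0.22 for HLA-B and -0.15 for TAP1, and the replicate block -0.10 for HLA-B. The causes were not tested. Depth limits TAP2 and NLRC5 in D425 (at most 28 and 10 counts per library) and PSMB8 and PSMB9 throughout.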
